A study of Mus musculus with 84 samples.

Results

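The immediate early gene Fos divided the 59 P cells of this series into 33 cells with at least 1 raw count of Fos and 26 cells with 0 counts, and the levels and detection of all other genes were then set side by side. The 59 cells are part of 84 single neurons, the other 25 being F cells. Each was drawn into a patch pipette from an acute slice of the prefrontal cortex of C57/BL6/N mice. No treatment was given to any group, the slices were kept for 1 hour in oxygenated artificial cerebrospinal fluid before recording, and aRNA amplification, in which polyadenylated messengers are copied by in vitro transcription, came before the stranded TruSeq libraries. The series' title speaks of pyramidal and fast-spiking cells, but the labels do not spell out the letters P and F, and they give neither the age of the mice nor which cells share a mouse. Each side of the split is therefore 1 sample, and the values below describe these cells, with no test.

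Fos encodes a basic leucine zipper protein that joins with a Jun protein to form the transcription factor AP-1. Its gene is silent or nearly so in most resting cortical neurons and is transcribed within minutes when calcium entry or growth factor signals reach the factors SRF and CREB at its promoter. Its messenger RNA is short-lived, and it appears together with a set of other immediate early genes, such as the Egr, Nr4a and Klf transcription factors, Npas4, Arc and the phosphatase Dusp1, followed by later activity-induced genes such as Bdnf and Nptx2.

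The cells of the 2 sides were chosen by their raw counts of Fos, so its own values are given only to show what was split. Levels are in counts divided by the cell's total and multiplied by 1000000 (CPM). Among the 33 cells with Fos it ranged from 0.208 to 3162 CPM, with a median of 44.5 CPM. Just inside the rule stood 3 cells with a single count, P20 at 0.208 CPM, P72 at 0.229 CPM and P42 at 0.445 CPM, and 8 of the 33 cells held 1 to 4 counts. Just outside it were the 26 cells at 0, in which a level of 3 counts would have read as 0.195 to 131 CPM depending on the cell's total. In 17 of these 26 cells that limit lay below 10 CPM, so Fos at 10 CPM would have been expected to leave more than 3 counts there, and in the other 9 fewer than 3, so that a 0 says less in those. The cell P35 counted as a cell with Fos at 152 CPM on 3 counts of a total of 19802.

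**Figure D1:**
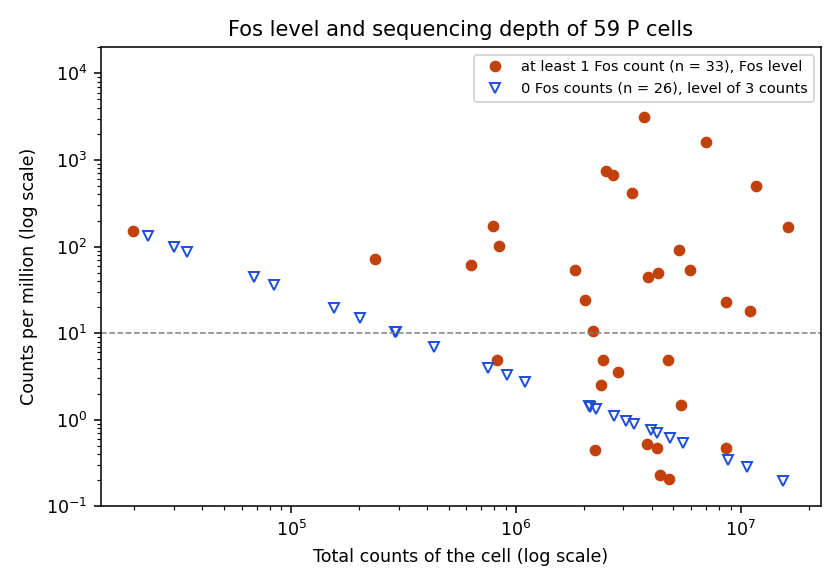
Fos level in CPM (log axis) against the total counts of the cell (log axis), with a filled point for each of the 33 P cells with Fos and an open triangle, at the level that 3 counts would give, for each of the 26 cells with 0 counts. Fos levels spread over the whole range of depth, from 0.208 to 3162 CPM, while 5 of the cells without Fos and 1 of those with it lie under 100000 counts.

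The sides differed in depth and in how many genes a library held, which bears on every detection count that follows. Totals ranged from 19802 to 16251918 counts with Fos (median 3713190) and from 22938 to 15367857 without (median 1599450). The median number of genes found per cell, meaning genes with at least 1 count, was 4109 with Fos and 2612.5 without. After thinning each cell at random to 139788 counts, which kept 32 cells with Fos and 21 without, it was still 1876.5 against 1539. The ribosomal RNA gene Rn45s took a median of 0.662% of counts with Fos and 2.34% without, up to 78.5% in P35. Under the older basecaller, bcl2fastq 1.8.4, there were 5 cells with Fos and 1 without. When the 59 cells were divided instead at 10 CPM of Fos, 21 cells at or above it and 38 below, the median number of genes found was 3488 against 3492, and 1791.5 against 1764 after thinning. Because genes found per cell were so close in that division, its values are given beside the main ones. It was among the alternatives listed, and the weight given to it here was chosen after its values were seen.

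Most genes stood higher in the cells with Fos, which also held more genes per cell. Of the 11247 genes found in 6 or more P cells, called measured below, 44.8% had a mean CPM at least 2-fold higher in cells with Fos and 21.5% at least 2-fold lower, with a median log2 fold of 0.68. Folds are of (mean CPM + 1), which understates the change of low genes. A measure less open to single cells is the share of the 858 pairs of a cell with and a cell without Fos in which the cell with Fos is higher, ties shared. It exceeded 50% for 84.6% of genes, with a median of 56.6%, and for 70.7% of genes after thinning, with a median of 52.6%. At 10 CPM of Fos the 2-fold counts were nearly even, 29.5% higher and 32.3% lower, and the share of pairs exceeded 50% for 70.5% of genes, with a median of 53.5%.

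In the main split the immediate early genes as a group did not stand out from this background by fold. Several of them, Egr1 first, were found in many more of the cells with Fos. Of 42 members of the lists of AP-1 partners and rapid immediate early genes, 41 were in the table and 33 were measured. Of these 33, 13 (39.4%, against 44.8% of all genes) were at least 2-fold higher in mean CPM with Fos and 6 (18.2%, against 21.5%) at least 2-fold lower. The share of pairs was over 50% for 27 of the 33 (81.8%, against 84.6% of all genes), also for 27 after thinning (against 70.7%) and for 28 in the division at 10 CPM of Fos (84.8%, against 70.5%). By fold, 16 of the 33 in that division (48.5%, against 29.5% of all genes) were at least 2-fold higher and 7 (21.2%, against 32.3%) lower. The median log2 fold there was 1.08 for rapid immediate early genes and 0.67 for AP-1 partners, against -0.14 for all genes. A measured gene had to be found in at least 6 of the cells, so these counts leave out the rarest members. Fosl1, Fosl2, Batf3, Atf3, Egr3, Nr4a3, Zfp36 and Arl4d did not reach that number, each being found in at most 3 cells of a side. Atf3, a stress-induced AP-1 partner, reached 2034 CPM in a cell without Fos.

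The number of early genes found in a cell separated the sides more than the folds did. After thinning to equal depth, a cell with Fos held a median of 8 early genes (0 to 20) and a cell without Fos 4 (1 to 12). Cells at 10 CPM of Fos or more held a median of 11, cells below 10 CPM 4. The summed level of the early genes had a median of 1922 CPM with Fos (2.48 to 20803) and 626 CPM without (0 to 7016). The ranges overlap: P71, which had 0 counts of Fos at a limit of 0.621 CPM for 3 counts, held 12 early genes after thinning, the most of its side, and the highest sum of its side, 7016 CPM.

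**Figure D2:**
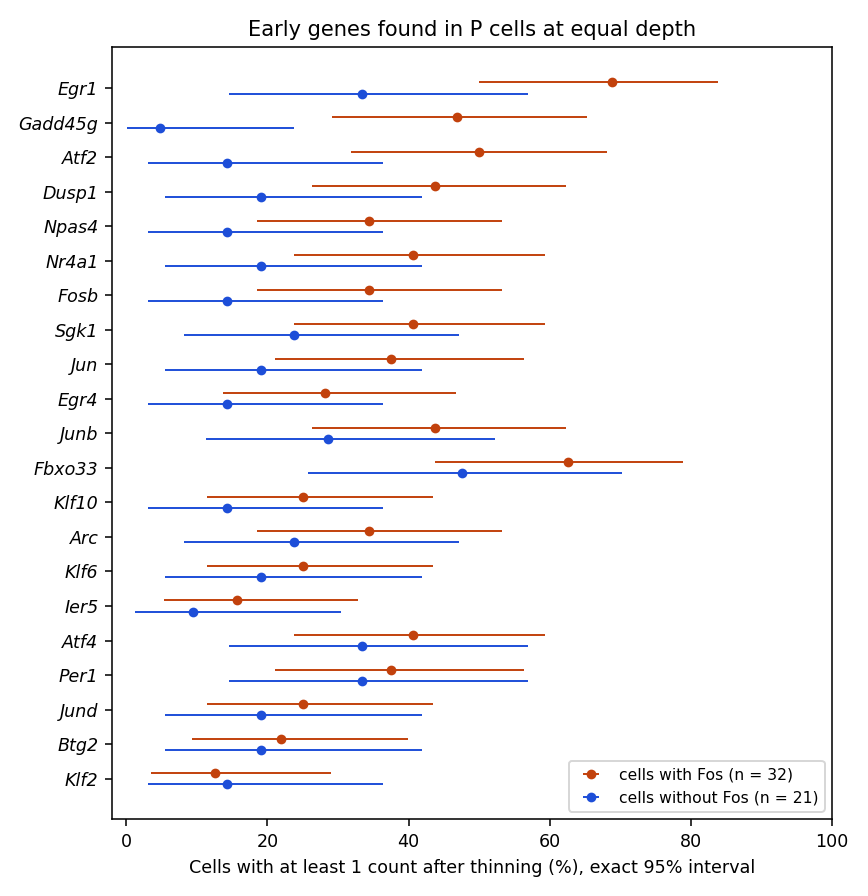
Percent of P cells with at least 1 count of each early gene after thinning to 139788 counts, with exact 95% intervals, for 32 cells with Fos and 21 without. Egr1 was found in 68.8% of cells with Fos against 33.3%, Gadd45g in 46.9% against 4.76% and Dusp1 in 43.8% against 19%, and only the intervals of Gadd45g do not overlap among the 21 genes drawn, those found in at least 15 cells.

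Egr1, a zinc finger transcription factor induced by the same signals as Fos, was the early gene with the highest share of pairs in the main split and in the division at 10 CPM. It ranged from 0 to 18108 CPM in cells with Fos, with a median of 722 CPM, and from 0 to 2509 CPM in cells without, with a median of 0.315 CPM. Only 1 of the 33 cells with Fos lacked it, while 12 of the 26 cells without Fos did, and the 6 highest cells all had Fos. The mean was 2190 CPM against 190 CPM, a log2 fold of 3.52, and of 3.15 without the highest cell, P41. After thinning it was found in 22 of 32 cells with Fos (68.8%, exact 95% interval 49.99 to 83.9%) and in 7 of 21 without (33.3%, 14.6 to 57%). The interval covers only the draw of these cells. The cell with Fos was higher in 80.2% of pairs, and in 73.4% after thinning, rank 17 of the 11247 genes. In the division at 10 CPM of Fos, Egr1 had the highest share of pairs of all 11247 genes, 81.8%. The 12 cells with Fos above 0 and under 10 CPM all held Egr1, with a median of 3.62 CPM, the 26 cells at 0 had it in 14, with a median of 0.315 CPM, and the 21 cells at 10 CPM or more a median of 1366 CPM. These values are without thinning, and the classes differed in depth, with median totals of 4034530, 1599450 and 3279910 counts in that order. After thinning, the median number of early genes found in them was 4.5, 4 and 11. Among the 28 cells with and 25 without Fos under the newer basecaller version, Egr1 was found in 27 and 13 and the share of pairs was 77.6%, against a median of 54.5% for all genes, while the older version held too few cells for a value. P41 itself lay just above the 10 CPM threshold, with 10.5 CPM of Fos, and P73, with 8006 CPM of Egr1, just below it at 4.87 CPM.

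The other Egr genes were rarer. Egr2 was found in 7 cells with Fos, up to 668 CPM, and in 3 without, up to 3.44 CPM. Its pooled counts were 977 against 3, a ratio per count of the sides of 169 (exact interval 57.8 to 823, counting error only), and P52 alone held 92.4% of the summed CPM of the cells with Fos. Egr4 was found in 11 cells with Fos (up to 685 CPM) and 4 without (up to 87.2 CPM), a log2 fold of 2.79 and a share of pairs of 58.3% after thinning.

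The AP-1 partners, the proteins Fos can pair with or that resemble it, had a share of pairs over 50% in 6 of 7 measured members, against 84.6% of all genes, and in 7 of 7 in the division at 10 CPM, against 70.5%. Of the 7, 1 was at least 2-fold higher, against 44.8% of all genes, and 1 lower, against 21.5%. Junb, a Jun protein that is itself induced early, ranged from 0 to 186 CPM with Fos (median 2.33 CPM) and from 0 to 89.97 CPM without (median 0). It was found in 21 of 33 against 10 of 26 cells, with a log2 fold of 1.25 that turned to -0.13 when TMMwsp factors replaced the totals. Jun was found in 20 against 10 cells, with means of 158 and 86.7 CPM and a log2 fold of 0.86. The highest Jun level of all, 1625 CPM, was in P71, which had no Fos count, and without P71 the log2 fold was 2.61. Jund, whose messenger is more constant in most tissues, had means of 21.1 and 29.6 CPM. P70 held 82.2% of its side with Fos and P21 83.5% of that without, and without P21 the log2 fold was 1.86. Atf2 had means of 85.5 and 89.8 CPM, with 89.7% of the side without Fos in P19 and a log2 fold of 3.02 without P19. After thinning Atf2 was found in 16 of 32 against 3 of 21 cells, a share of pairs of 66.7%, rank 188. In the division at 10 CPM its share was 59.1%. Atf4, a stress-response factor, had means of 148 and 95.7 CPM. Jdp2, a repressor that binds AP-1 sites, was lower in mean, 3.18 against 20.2 CPM, found in 6 and 5 cells, and P26 held 85.4% of the side without Fos.

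Fosb, the closest relative of Fos on this list, showed how much a mean of single cells can hang on 1 of them. It was found in 14 of 33 cells with Fos, up to 510 CPM, and in 6 of 26 without, up to 605 CPM. The log2 fold of mean CPM was 0.53, but P32, a cell with 0 Fos counts, held 93.4% of the sum of its side, and without it the log2 fold was 3.79. The share of pairs was 61.7%, 60.7% after thinning and 70.4% in the division at 10 CPM. Nr4a1, an orphan nuclear receptor, had the same form. It was found in 17 against 7 cells, and reached 4583 CPM in P30, a cell with 0 Fos counts that held 96.1% of its side, and 1654 CPM in P57, a cell with Fos. Its log2 fold was -0.50 with P30 and 3.96 without, and its share of pairs 63.6%, 61.2% after thinning and 71.8% in the division at 10 CPM. Nr4a2 was found in 6 and 5 cells, with means of 0.144 and 3.91 CPM, and P36 held 75.4% of the higher side.

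Npas4, a factor specific to neurons that responds to calcium entry, was found in 13 of 33 cells with Fos and 5 of 26 without. It ran from 0 to 771 CPM with Fos and from 0 to 20.6 CPM without, with a median of 0 on both sides, so its difference lay in a few cells, and the 6 highest all had Fos. Means were 83.6 and 1.61 CPM, a log2 fold of 5.02 and 4.59 without the highest cell, P61. The share of pairs was 62.4%, 61.8% after thinning and 68.7% in the division at 10 CPM.

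Dusp1, a phosphatase that switches off MAP kinases and so limits its own induction, was among the early genes found unequally. It was found in 20 of 33 cells with Fos, with a median of 1.04 CPM and a highest of 3286 CPM, and in 5 of 26 without, with a median of 0 and a highest of 296 CPM. The log2 fold was 3.79, and 3.31 without P70. After thinning 14 of 32 against 4 of 21 cells held it, and the share of pairs was 71.5%, 64.4% after thinning and 70.4% in the division at 10 CPM.

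Gadd45g, a stress and differentiation gene that acts on p38 and JNK signalling, gave the widest gap in detection after thinning among the early genes. It was then found in 15 of 32 cells with Fos (46.9%, exact interval 29.1 to 65.3%) and 1 of 21 without (4.76%, 0.120 to 23.8%), a share of pairs of 69.9%, rank 68 of all genes. Before thinning the counts were 19 of 33 and 5 of 26. The means hid this, at 161 and 139 CPM with a log2 fold of 0.22, because P39, with 0 Fos counts, held 3603 CPM. Without P39 the log2 fold was 7.24. Gadd45b, of the same family, was found in 8 against 3 cells, up to 134 and 1.03 CPM.

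**Figure D3:**
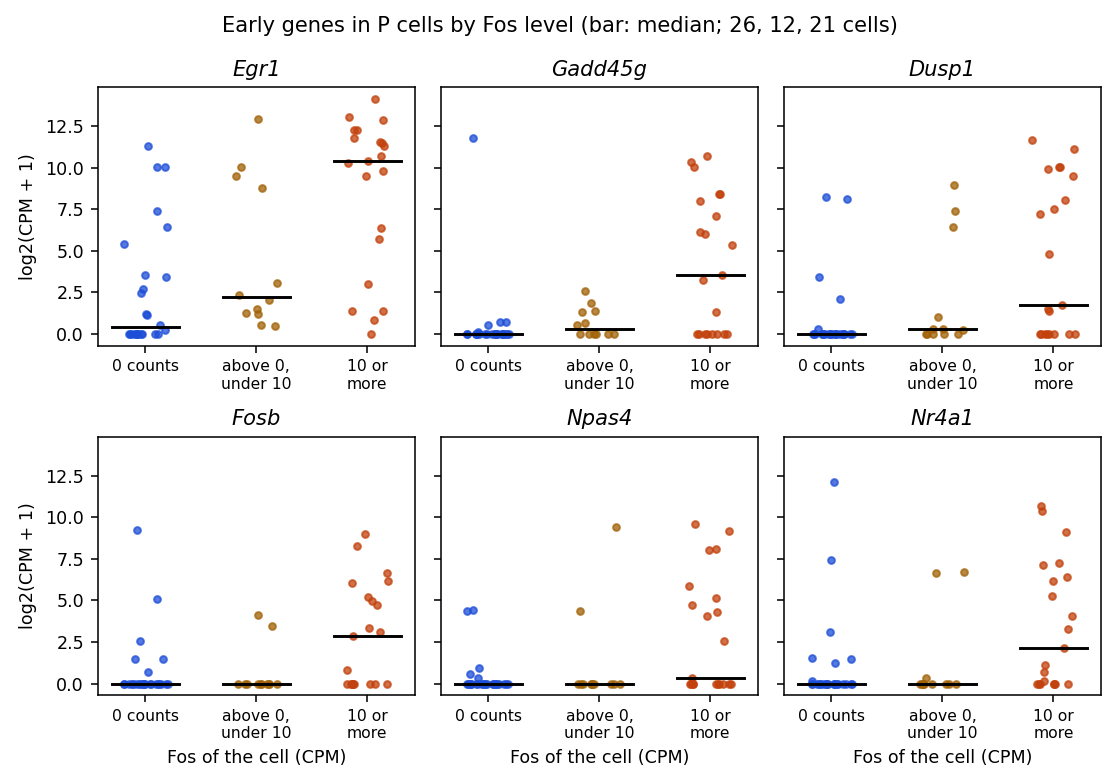
Level of 6 early genes as log2(CPM + 1) in each P cell, by Fos at 0 (26 cells), above 0 and under 10 CPM (12 cells) and 10 CPM or more (21 cells), with a bar at the median. Egr1 has medians of 0.315, 3.62 and 1366 CPM in these classes, and single cells at 0 Fos stand high for Nr4a1 (P30), Fosb (P32) and Gadd45g (P39). Levels are without thinning, and the classes had median totals of 1599450, 4034530 and 3279910 counts.

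Promoter sequences are shown for 4 early genes whose detection or level went with Fos, so that the motifs counted below can be seen in place. They are the 250 bases before the start of transcription in RefSeq, build GRCm38.p6, read 5′ to 3′ along the gene, with a match of a searched motif in capitals: Fosb at chr7:19310046-19310295, minus strand, Nr4a1 at chr15:101266596-101266845, plus strand, Dusp1 at chr17:26508473-26508722, minus strand, and Npas4 at chr19:4989972-4990221, minus strand.
Fosb: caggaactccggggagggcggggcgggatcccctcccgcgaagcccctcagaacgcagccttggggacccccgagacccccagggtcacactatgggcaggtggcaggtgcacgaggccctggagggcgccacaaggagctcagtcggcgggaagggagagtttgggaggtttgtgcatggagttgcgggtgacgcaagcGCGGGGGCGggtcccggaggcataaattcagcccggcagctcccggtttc
Nr4a1: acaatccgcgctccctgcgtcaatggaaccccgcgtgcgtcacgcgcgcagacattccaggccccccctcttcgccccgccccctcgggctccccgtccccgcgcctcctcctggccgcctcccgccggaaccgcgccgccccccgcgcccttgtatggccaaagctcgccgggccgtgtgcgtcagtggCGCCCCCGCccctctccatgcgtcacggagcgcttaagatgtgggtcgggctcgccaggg
Dusp1: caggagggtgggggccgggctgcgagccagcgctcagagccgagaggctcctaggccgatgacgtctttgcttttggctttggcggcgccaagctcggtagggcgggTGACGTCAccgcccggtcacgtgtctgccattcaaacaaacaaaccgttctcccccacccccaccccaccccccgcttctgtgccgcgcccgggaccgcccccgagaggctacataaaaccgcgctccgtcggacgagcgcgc
Npas4: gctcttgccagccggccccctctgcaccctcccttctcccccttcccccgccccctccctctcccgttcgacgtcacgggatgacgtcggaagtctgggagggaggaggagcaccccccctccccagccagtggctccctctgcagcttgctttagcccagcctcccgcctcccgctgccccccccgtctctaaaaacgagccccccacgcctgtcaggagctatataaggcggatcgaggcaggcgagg
The capitals mark a match of GCGNGGGCG, the Egr family motif, in Fosb (bases -50 to -42 before the start) and, on the other strand, in Nr4a1 (-60 to -52), and of TGACGTCA, the CREB motif, in Dusp1 (-143 to -136). The Npas4 window held none of the letters searched, and neither did those of Fos, Junb and Gadd45g, which are not printed.

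The 4 motifs were picked after the levels were seen, and each was searched on both strands of these windows. An entry was found for 8193 measured genes, 26 of them early genes. GCGNGGGCG was in 9 of the 26 early windows (34.6%) and in 11.1% of all windows, the 9 being those of Atf2, Btg2, Fosb, Gadd45b, Klf2, Klf4, Maff, Nr4a1 and Nr4a2. TGACGTCA was in 3 (11.5%, against 3.05%), those of Btg2, Dusp1 and Maff. The CArG box, at which SRF binds, was in 1 (3.85%, against 1.53%), that of Egr2, and TGANTCA, at which AP-1 binds, in 0 (against 5.31%). By their letters, no match of a pattern can contain a match of another. A match is only a match of letters in a window of this length. By mean, the genes with the Egr motif were on both sides of the split. Atf2, Btg2, Klf2, Nr4a1 and Nr4a2 had lower means with Fos, and Fosb, Gadd45b, Klf4 and Maff higher ones. Without the highest cell the log2 folds of Atf2 (3.02), Btg2 (0.16), Klf2 (1.12), Nr4a1 (3.96) and Maff (-0.18) changed sign, so their placing hangs on 1 cell.

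Among the remaining early genes, several folds came largely from 1 cell. Higher in mean with Fos were Klf4, Klf6, Klf10, Sgk1, Ier3 and Maff. Klf4, a zinc finger factor, was found in 9 against 2 cells, and its pooled counts of 57467 against 3 gave a ratio of 9967 (exact interval 3410 to 48333, counting error only), with 77.4% of the summed CPM in P61. After thinning Klf4 was found in 3 of 32 against 1 of 21 cells, a share of pairs of 52.5%, against a median of 52.6% for all genes. In the division at 10 CPM the share was 51.7%, against a median of 53.5%. Klf6 was found in 19 against 6 cells with a log2 fold of 1.58 and Klf10 in 14 against 5 with 1.08, the latter 0.01 without P70. Sgk1, a kinase induced by glucocorticoids and by activity, was found in 19 against 10 cells, with a median of 0.445 against 0 CPM and a log2 fold of 4.10, and of 2.25 without P70 at 6822 CPM. Ier3, a survival gene, was found in 8 of 33 cells with Fos and in 0 of 26 without. P73 held 310 CPM and P61 299 CPM, and the other cells at most 3.69 CPM. After thinning it was found in 3 of 32 against 0 of 21 cells. In the division at 10 CPM its log2 fold was 0.76. With 3 counts taken over the side without Fos, its pooled ratio was at least 862-fold higher with Fos, a bound that rests mainly on P61 and P73. Setting Ier3 at that bound leaves the list's median where it was, since it lies above it either way. Maff was found in 3 cells on each side, and P29 held 97.1% of the side with Fos.

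Lower in mean with Fos, besides Jdp2 and Nr4a2, were Ier2, Btg2, Klf2 and Sik1, and for the first 3 of these 1 cell carried the side without Fos. Ier2 was found in 6 against 3 cells, and P71, at 4312 CPM, held 99.9% of its side, so that the log2 fold of -3.59 became 3.66 without it. Btg2, an antiproliferative early gene, was found in 12 against 6 cells, with P32 at 2289 CPM, a log2 fold of -4.89 and of 0.16 without P32. Klf2 was found in 9 against 6 cells, with a log2 fold of -1.07 and of 1.12 without P15. Sik1, a salt-inducible kinase, was found in 2 against 5 cells with pooled counts of 3 against 5, a ratio of 0.312 (exact interval 0.0485 to 1.60).

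Arc, whose messenger travels to active synapses, did not follow Egr1. It was found in 14 of 33 cells with Fos, up to 1433 CPM, and in 6 of 26 without, up to 1563 CPM, with a log2 fold of -0.42 and a share of pairs of 58.7%, 54.6% after thinning. The fold of (mean CPM + 1) was also under 2 for Ier5, Cyr61, Amigo3, Fbxo33, Per1 and Trib1. Fbxo33 was the most often found of them, in 27 against 13 cells with means of 222 and 211 CPM, and Ier5 was found in 12 against 4, Per1, a clock gene, in 16 against 8, Cyr61 in 8 against 2, Trib1 in 7 against 6 and Amigo3 in 3 against 4.

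Within the 33 cells with Fos, all of the same side, levels of early genes went with the level of Fos. The Fos values are those that set the split, so what follows is a description and no separate support for it. Rank correlations with Fos CPM were above 0 for 28 of the 33 early genes (84.8%), against 53.6% of 11246 genes, with a median of 0.19 against 0.02. They are descriptions over 33 cells, whose levels each share 1 library and its depth, and many cells are tied at 0. Fosb had 0.59, rank 2 of all genes, Npas4 0.56, rank 5, Nr4a1 0.56, rank 8, Egr4 0.52, rank 24, Dusp1 0.48, rank 44, and Egr1 0.42, rank 120. The level of Fos itself had a rank correlation of -0.11 with the cell's total and of -0.06 with the genes found in it. The gene most like Fos by this measure was Ctnnd2, delta-catenin of the synaptic adherens junction, at 0.64. The next by the same measure, after Fosb, were Smarca2 at 0.57 and Smyd3 at 0.57.

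**Figure D4:**
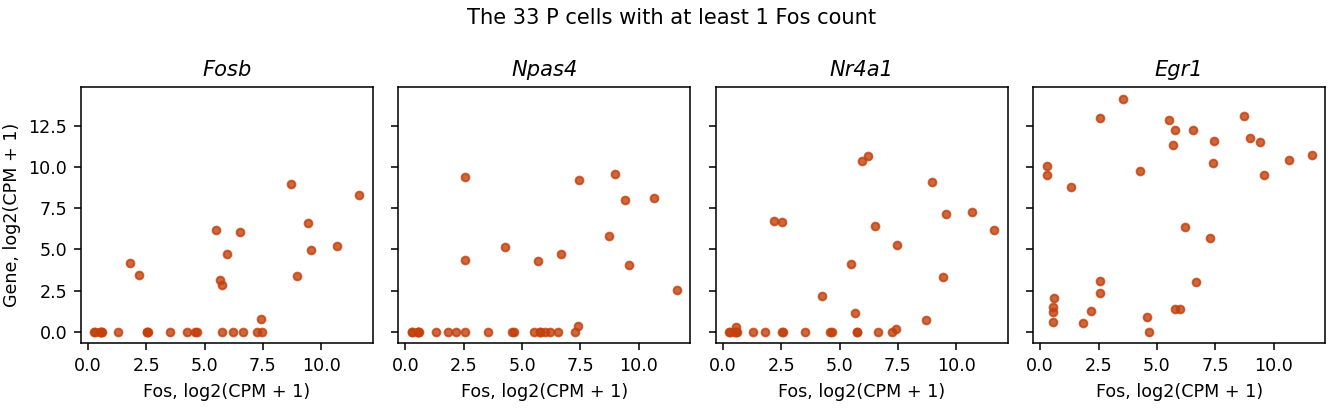
Levels of Fosb, Npas4, Nr4a1 and Egr1 against that of Fos, both as log2(CPM + 1). Each point is 1 of the 33 P cells with at least 1 Fos count. Fosb has a rank correlation of 0.59 with Fos, Npas4 0.56, Nr4a1 0.56 and Egr1 0.42. Many points lie at 0 on the vertical axis.

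The F cells, which the rule did not use, give the same comparison in other cells. Fos was found in 12 of 25, up to 25111 CPM. The share of pairs was over 50% for 28 of 29 early genes measured there, with a median of 62.5%, against 81.3% of 9739 genes with a median of 57.7%. A gene needed a count in only 3 F cells to be measured. Some early genes, among them Junb, Fosb, Egr2 and Ier2, passed only through cells with Fos. For those a share over 50% was fixed in advance, so the count of 28 is no separate support. Egr1 was found in 11 of 12 F cells with Fos and 9 of 13 without, with means of 5513 and 32.4 CPM. Junb was found in 6 against 0, Fosb in 4 against 0, Dusp1 in 8 against 4 and Gadd45g in 6 against 1. The F cells with Fos were also deeper and richer in genes, with medians of 885830 against 280097 counts and 3074 against 1855 genes found, and 16 of the 25 F libraries, but 0 of the P libraries, hold 2 or more counts of Klhl18, of Celsr1 and of Pno1 alike. By fold, 46.8% of all genes were at least 2-fold higher in mean and 21.2% lower, with a median log2 fold of 0.80. That of the rapid immediate early genes was 2.29, and 2.26 without those 16 libraries, which leaves few cells. The F cells were not thinned.

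In the main split, the genes that led the comparison once depth was made equal were not early genes. Of 2479 genes found in at least 30% of the thinned cells of a side, 976 were at least 2-fold higher with Fos before and after thinning and 364 lower. The first by share of pairs was Cdc42, a small GTPase of the actin cytoskeleton, at 79.6% after thinning. It was found in 29 of 33 cells with Fos (median 50.5 CPM, highest 2054) and 13 of 26 without (median 0.0469 CPM, highest 3110), and after thinning in 27 of 32 against 6 of 21. Pgm2l1, which makes glucose 1,6-bisphosphate in brain, came next with means of 1920 and 279 CPM and medians of 755 and 0.617 CPM. Negr1, a GPI-anchored neuronal adhesion protein, was found in 28 against 9 cells with means of 374 and 5.74 CPM, and Hsp90b1, the chaperone of the endoplasmic reticulum, in 26 against 11 with means of 494 and 36.3 CPM.

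The others among the first 10 were Synj1, the phosphatase of synaptic vesicle recycling, Dmxl2, also of synaptic vesicles, Ralgapa1, which restrains Ral GTPases, Paxbp1, Kat6b, a histone acetyltransferase, and Psma1, a proteasome subunit. Synj1 was found in 30 against 12 cells, Dmxl2 in 25 against 10, Ralgapa1 in 28 against 12, Paxbp1 in 28 against 7, Kat6b in 26 against 8 and Psma1 in 21 against 8. Their shares of pairs after thinning lay between 74.1% and 77.1%, above the 62.9% that 95% of all genes stayed under. The ranking chose them for these values, so the values are a description. Within the 33 cells, the rank correlation with Fos lay between -0.03 for Synj1 and 0.17 for Kat6b, with 0.05 for Cdc42, 0.03 for Pgm2l1, 0.07 for Negr1, 0.01 for Hsp90b1, -0.02 for Paxbp1, 0.14 for both Dmxl2 and Ralgapa1 and 0.12 for Psma1, against a median of 0.02 for all genes. In the division at 10 CPM of Fos the log2 fold of Hsp90b1 was -0.13 with a share of pairs of 70.2%, rank 80, and that of Paxbp1 -0.37 with 66.9%, rank 267, so fold and pairs differ in direction. Pgm2l1 had 71.3%, rank 53, Negr1 74.4%, rank 18, and Kat6b 74.7%, rank 15. Lower shares were those of Synj1 at 68.4%, rank 151, Psma1 at 67.4%, rank 229, and Dmxl2 at 67.3%, rank 232. Ralgapa1 had 66.2%, rank 333, and Cdc42 65.8%, rank 368. With sides set again by the thinned Fos counts, Egr1 ranked 1 of all genes at 82.7% and Gadd45g 4 at 76.9%. Negr1 then ranked 8 and Cdc42 263.

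**Figure D5:**
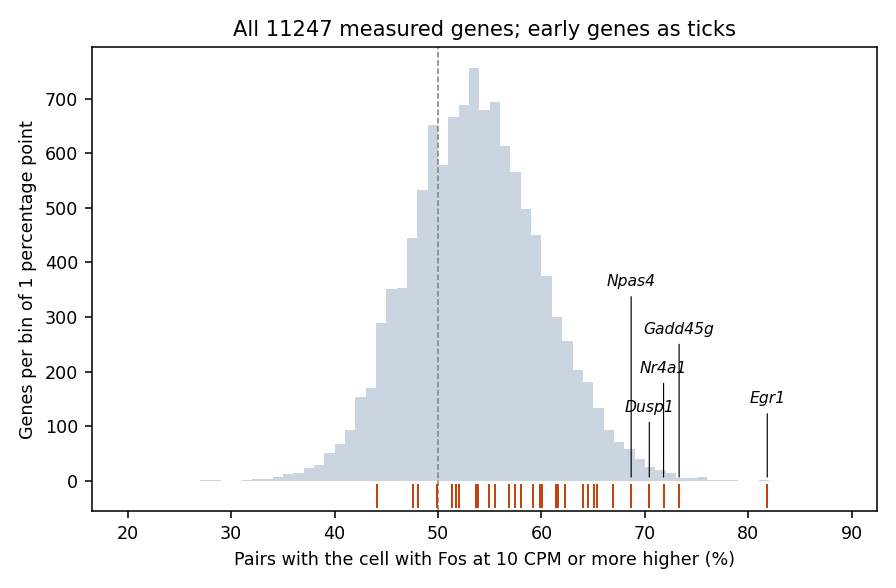
Number of genes by the percent of pairs in which the cell with Fos at 10 CPM or more (21 cells) is higher than the cell below 10 CPM (38 cells), for 11247 genes, with the 33 early genes as ticks. Egr1 lies at the right end at 81.8%, against a median of 53.5% for all genes.

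On the other side, the genes that led as lower with Fos had smaller gaps. Etf1, the translation release factor, was found after thinning in 3 of 32 cells with Fos and 8 of 21 without, a share of pairs of 35.1%, and Rad9a, of the DNA damage checkpoint, in 1 against 7. Rplp1, a ribosomal protein of the large subunit's stalk, was the most often found of them. Its level ran from 0 to 7254 CPM with Fos (median 467 CPM) and from 0 to 23154 CPM without (median 1023 CPM), so the sides overlap over most of their range. Thoc3, of the complex that exports messenger RNA, and Ttc4, a co-chaperone, followed, with means of 3.69 and 182 CPM and of 22.8 and 73.6 CPM, then Atp5d, a subunit of ATP synthase, with 95.0 and 332 CPM, Epb4.1l1, a membrane skeleton protein, with 18.01 and 88.4 CPM, Map3k9, a kinase upstream of JNK, with 9.45 and 107 CPM, and Zfp62 with 74.3 and 210 CPM.

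Ctnnd2 was in this group too, which sets its 2 readings apart. Its mean was 430 CPM with Fos and 2392 CPM without, a log2 fold of -2.47, with P26 at 27632 CPM and 44.4% of the side. By class of Fos its median was 34.3 CPM at 0, 0.306 CPM above 0 and under 10 CPM, and 36.6 CPM at 10 CPM or more. Its share of pairs was 46.2% in the main split and 62.8% in the division at 10 CPM, both without thinning. After thinning it was 37.7% in the main split, and 57.6% with sides set again by the thinned Fos counts. Its order between the sides thus depended on where the 12 cells with little Fos were placed.

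The later activity-induced genes, which follow the early ones by hours, had a median log2 fold of 1.12 over 17 measured members, against 0.68 for all genes, with 9 at least 2-fold higher, against 44.8% of all genes, and 3 lower, against 21.5%. Cdkn1a, a cell cycle inhibitor, was found in 14 against 2 cells, but P70 held 96.0% of the side with Fos. Nptx2, a secreted pentraxin that clusters AMPA receptors, was found in 16 against 5 cells with a log2 fold of 4.54. Bdnf, the neurotrophin, was lower with Fos, with means of 38.97 and 326 CPM, and was found in 11 cells on each side, and Homer1, a scaffold of the postsynaptic density, was found in 28 against 16 cells with means of 385 and 1215 CPM. Folds over trimmed means brought this list's median to 0.30, and the cells of the newer basecaller version alone to 0.015.

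Genes of the pathways that lead to Fos were mixed. Among the MAP kinase phosphatases and their kin, 4 of 9 were at least 2-fold higher and 5 lower, against 44.8% and 21.5% of all genes, with a median of -1.30 against 0.68. Dusp6, the phosphatase of ERK, was found in 22 against 5 cells with means of 239 and 26.3 CPM and a share of pairs of 68.7% after thinning and 72.7% in the division at 10 CPM, rank 27 of all genes. Spry2, an inhibitor of receptor signalling, had means of 28.9 and 8.37 CPM. Dusp14 had 40.8 and 1012 CPM, with P58 at 70.1% of the higher side, and Dusp8 25.3 and 150 CPM, with P18 at 98.8% and a log2 fold of 3.23 without it. Of the 34 kinases and factors that act on the Fos promoter, 12 were higher and 3 lower, against 44.8% and 21.5% of all genes, with a median of 0.37 against 0.68. Map2k1, the kinase of ERK, was found in 22 against 8 cells, with medians of 0.889 and 0 CPM and a share of pairs of 75.6% in the division at 10 CPM, rank 9. Camkk1, a calcium-dependent kinase that activates other CaM kinases, was found in 17 against 11 cells with 82.1% of the side with Fos in P57, and Braf, which activates Map2k1, in 18 against 13 with means of 96.3 and 372 CPM.

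Genes of calcium entry had the highest median of these lists, 2.78 over 11 members, 9 of them at least 2-fold higher and 2 lower, against 44.8% and 21.5% of all genes. In the division at 10 CPM of Fos it was 0.87, with 5 higher and 5 lower, against 29.5% and 32.3%. Cacnb4, a beta subunit of voltage-gated calcium channels, was found in 25 against 13 cells with medians of 206 and 0.0570 CPM and highest levels of 6618 and 469 CPM, a share of pairs of 73.7% after thinning, rank 15. Cacnb3 was found in 15 against 8 cells, with 85.3% of the side with Fos in P42, and its log2 fold of 4.63 was -1.80 in the division at 10 CPM. Grin2b, an NMDA receptor subunit, was found in 27 against 16 cells and was lower in mean with Fos, 149 against 1589 CPM, with 75.8% of the higher side in P30. Among heat shock and stress genes 8 of 16 were higher and 4 lower, near the 44.8% and 21.5% of all genes, with a median of 0.96 that became 0.06 in the division at 10 CPM. Hspa1a, an inducible HSP70 chaperone, was found in 11 against 2 cells with 94.3% of the side with Fos in P25, its near-identical copy Hspa1b, between which reads may have been split, had means of 2.31 and 12.9 CPM and Hspa4 of 484 and 1548 CPM.

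Markers of glutamatergic cells also had a median share of pairs above that of all genes, 63.9% against 56.6%, and 59.2% against 52.6% after thinning. The share was over 50% in 12 of 15 measured members, against 84.6% of all genes, and after thinning in 13, against 70.7%. Slc17a7, the vesicular glutamate transporter of cortical pyramidal cells, was found in 27 of 33 and 13 of 26 cells, with medians of 22.4 and 0.118 CPM. Its means went the other way, at 135 and 286 CPM, a log2 fold of -1.07 that changed sign in 5 of the settings tried. The kinase Camk2a was found in 27 and 14 cells, with means of 90.6 and 171 CPM, and 58.6% of the side without Fos was in P30. Without P30 its log2 fold was 0.30, in the other direction. The summed glutamatergic list had a median of 3630 CPM with Fos (0 to 10059) and 3200 CPM without (61.3 to 7797), with none of its members at 0 on either side, and 7 of 15 measured members were at least 2-fold higher and 2 lower, against 44.8% and 21.5% of all genes. Slc17a6, the transporter's relative in subcortical neurons, was found in 6 cells on each side with 72% of the side with Fos in P42, and Ptk2b in 18 and 16 with means of 65.5 and 211 CPM. The summed GABAergic list had medians of 26.6 and 10.6 CPM, up to 4687 and 16783 CPM, with Dlx6 and Nxph1 at 0 in all cells with Fos and Dlx6, Npy and Pvalb, which marks fast-spiking cells, at 0 in all cells without. Gad1, which makes GABA, was found in 17 and 10 cells, with 98.8% of the side without Fos in P67, and Kcnc2 in 13 and 8. In 4 cells, P3 and P57 with Fos and P67 and P75 without, the GABAergic markers that reached 10 CPM outnumbered the glutamatergic ones, against the label.

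By layer, the upper-layer markers had 6 of 11 measured members at least 2-fold higher and 2 lower, and the deep-layer markers 6 of 15 and 2, against 44.8% and 21.5% of all genes. Pou3f3 was found in 9 and 6 cells with 90.7% of the side with Fos in P3, Pou3f2 in 14 and 11 with 86.2% of the side without in P15, Ctgf in 13 and 2 with 73.4% of the side with Fos in P52, and Rprm in 13 and 4 with 99.5% of the side without in P14. Fezf2, a factor of deep-layer cells that project below the cortex, was found in 15 and 8 cells with means of 156 and 50.1 CPM, and its log2 fold of 1.62 was -1.30 in the division at 10 CPM. It was added after the values were seen.

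Glial and vascular markers were present on both sides. The sum of the astrocyte markers moved with the split, and its part in the results was not tested. The 15 astrocyte markers summed to a median of 3073 CPM with Fos (2.63 to 95103) and 210 CPM without (0 to 100848), with none of them at 0 on either side. Of 14 measured, 10 were at least 2-fold higher with Fos and 2 lower, against 44.8% and 21.5% of all genes, with a median of 2.18 against 0.68. In the division at 10 CPM 2 were higher and 7 lower, against 29.5% and 32.3%, with a median of -1.07 against -0.14. S100b was found in 15 and 2 cells, Aldoc in 23 and 15, with 69.4% of the side without Fos in P56, and Gfap in 6 and 3. The 13 oligodendrocyte lineage markers had medians of 17.1 and 7.64 CPM, with Mbp found in 22 and 12 cells. The 14 microglia markers had medians of 10.3 and 10.6 CPM, up to 9495 and 22791 CPM. Of these 14, 8 were at least 2-fold lower with Fos and 1 higher, against 21.5% and 44.8% of all genes, a median of -1.65, although the share of pairs was over 50% for 13 of them, against 84.6%. Cx3cr1, the fractalkine receptor, was found in 19 and 12 cells, with 90.9% of the side without Fos in P14. Endothelial and mural markers had medians of 0.547 and 0.474 CPM, and Acta2 was found in 10 and 3 cells with 97.6% of the side with Fos in P35.

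Housekeeping lists and other channel and receptor lists were mixed, and their counts stand against 44.8% of all genes at least 2-fold higher and 21.5% lower. Of 82 ribosomal protein genes, 12 were at least 2-fold higher with Fos and 13 lower, a median of -0.09. Of 75 respiratory chain subunits 23 were higher and 18 lower, a median of 0.34, and of 37 proteasome subunits 21 higher and 10 lower, a median of 1.34. Of 18 voltage-gated potassium channel genes 7 were higher and 4 lower, a median of 0.61, and of 11 AMPA and metabotropic glutamate receptor genes 4 higher and 2 lower, a median of 0.58. In the division at 10 CPM all 5 medians were below 0, from -0.09 to -0.70, against -0.14 for all genes.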

How the data were processed

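Single-cell RNA sequencing libraries of 59 P and 25 F cells were described, with groups taken from the sample titles. The deposited table holds the authors' raw counts of reads per gene symbol for 19685 genes, as whole numbers whose sums differ from cell to cell. The submitters' processing notes name bcl2fastq (1.8.4 for some cells, 2.17 for others), the aligner STAR 2.4.0 and the build mm10. For the counting tool, annotation, strand setting and filters no name or version was found (not given in the sources used here). How reads of overlapping genes or close copies were shared out is therefore unknown. Reads carry no molecular identifiers named in the labels, so intervals cover counting error or the draw of cells only.

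Counts were divided by the cell's total and multiplied by 1000000 (CPM), and CPM was averaged with equal weight per cell. A gene was measured with a count in at least 6 P cells. Thinning drew counts without replacement to 139788, the 10th percentile of the P totals, or to 500000. Intervals of shares are exact Clopper-Pearson 95% intervals, and a count of 0 was bounded with 3 counts over the side. TMMwsp factors came from edgeR 4.0.16 in R 4.3.3, the rest from Python 3.11.15 with numpy 2.4.6, pandas 2.3.3 and scipy 1.17.1. The scripts were tested on simulated data. No library pair looked like a duplicate: the highest correlation of log2(CPM + 1) between P libraries was 0.486, P2 with P25, at a median of 0.174. Because the labels name no animal, each side is 1 sample, and no test, p-value or standard error was made.

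The split, the gene lists, the named genes and the alternatives were chosen with earlier results of these data known. The rule names all measured early genes, the first 10 higher and 10 lower by thinned share of pairs, among genes found in at least 30% of a side's cells and at least 2-fold apart both before and after thinning, up to 2 members of each other list in each direction found in at least 12 cells, and 14 markers. Left out of the ranking were predicted genes, ribosomal RNA and mitochondrial genes. It named 117 genes, and 86 are given here. A further 3 are not reported here and were not replaced. The other 28 were dropped after their values, and how many of their folds changed sign between settings, were seen, to shorten the text, by naming fewer members of marker lists and none of 5 lists, which are described by counts. Also chosen after the values were seen were Fezf2, the motifs and promoters, the genes plotted, the minimum of 3 F cells for a gene there, and the bound of 1.5 times used to call a list's median moved.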

Additional observations from a re-analysis of the deposited data

How the results depend on the processing

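Where a value below moved with a setting, the cause was not tested. At least 2-fold higher were 5039 genes and lower 2414. With trimmed means these were 2746 and 132, with the difference of mean log2(CPM + 1) 2407 and 78, in the division at 10 CPM of Fos 3317 and 3628, and among genes found in at least 15 cells, where fewer genes were counted, 2653 and 1218. With a pseudocount of 10 CPM 1597 genes were lower. The ratio of median genes found per cell was 1.57, and 0.999 in the division at 10 CPM and 1.04 with sides set again after thinning. The median log2 fold of AP-1 partners, 0.53, was -0.43 with pooled counts, -1.10 in cells above the median total, 2.54 with trimmed means and 1.26 with mean logs. That of the rapid immediate early genes, 0.59, was 1.53 in cells above the median total. That of later activity-induced genes was 0.30 with trimmed means and 0.015 under the newer basecaller version, and that of heat shock genes 0.26 with TMMwsp factors and 0.062 at 10 CPM of Fos. In the other settings tried these values stayed within 1.5 times of the main ones, a log2 median being compared as a fold. These settings include thinning to 139788 and to 500000 counts, other totals, no filter on low counts and at least 5 Fos counts. Leaving out shallow cells or cells with more GABAergic markers is also among them. A log2 median could still move further in proportion. After thinning to 139788 counts it was 0.31 for AP-1 partners and 0.19 for rapid immediate early genes. It was then 0.85 for later activity-induced genes, 0.89 for heat shock genes and 0.63 for all genes. The older basecaller alone was not run because it held 5 cells with Fos and 1 without. For F cells the value without the 16 libraries that hold counts of Klhl18, Celsr1 and Pno1 alike was added later, with the data in view.

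Without the cell with the highest level of the gene, the log2 folds that changed sign, among genes at least 2-fold apart, were those of Jdp2 at 0.041, Ier2 at 3.66, Btg2 at 0.16, Klf2 at 1.12, Maff at -0.18, Rad9a at 0.083, Dusp8 at 3.23, Rprm at 3.72, Acta2 at -0.84 and Gad1 at 4.68. With means trimmed by 20% at each end they were Btg2 at 0.34, Klf2 at 0.026, Homer1 at 2.14, Dusp14 at 0.72, Dusp8 at 1.94, Grin2b at 0.17, Hspa4 at 1.58, Slc17a6 at -0.0084, Rprm at 0.33, Aldoc at 1.58, Mbp at 0.95, Slc17a7 at 1.67 and Gad1 at 0.029. With the difference of mean log2(CPM + 1) they were Ier2 at 0.14, Homer1 at 0.77, Dusp8 at 0.99, Grin2b at 0.64, Hspa4 at 0.56, Rprm at 0.42, Aldoc at 0.16, Mbp at 0.47, Slc17a7 at 1.56 and Gad1 at 0.19. With pooled counts they were Dusp8 at 1.08, Braf at 0.11, Hspa1b at 2.03, Hspa4 at 0.74 and Slc17a7 at 0.75. With TMMwsp factors they were Junb at -0.13, Atp5d at 1.66 and Epb4.1l1 at 0.87. Among cells above the median total of 2706396 counts they were Sik1 at 0.023, Thoc3 at 0.19, Dusp8 at 3.09, Braf at 0.38, Hspa1b at 1.56, Hspa4 at 2.63, Aldoc at 0.24, Slc17a7 at 2.21 and Gad1 at 4.18. Among cells at or below it they were Klf2 at 0.39, Klf10 at -4.35, Maff at -0.39, Sgk1 at -1.99, Epb4.1l1 at 0.36, Zfp62 at 0.30, Rprm at 2.53, Mbp at 0.71 and Cx3cr1 at 1.48. After thinning to 500000 counts they were Dusp8 at 2.79, Braf at 0.19, Hspa1b at 0.80, Hspa4 at 1.38, Aldoc at 0.36 and Slc17a7 at 0.20. Leaving out cells under 100000 counts turned Hspa1b at 0.052. Leaving out P3, P57, P67 and P75 turned Gad1 at 5.21. The cells of the newer basecaller version alone gave Rad9a at 0.17 and Rprm at 3.96. Cells with at least 5 Fos counts against those with 0 gave Acta2 at -0.85. The division at 10 CPM of Fos gave Klf2 at 0.078, Klf6 at -0.12, Hsp90b1 at -0.13, Paxbp1 at -0.37, Cacnb3 at -1.80, Slc17a6 at -0.81, S100b at -0.64, Gfap at -4.18 and Fezf2 at -1.30. Sides set again by Fos after thinning gave Klf6 at -0.44, Sik1 at 0.13, Paxbp1 at -0.61, Cacnb3 at -2.29, Hspa1b at 0.31, Slc17a6 at -0.86, S100b at -0.85, Gfap at -4.31 and Fezf2 at -1.33. Thinning to 139788 counts, other totals, a pseudocount of 10 CPM and the filters on low counts turned none of the genes that had a value there.

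The share of pairs was followed over 11 settings. Trimmed means, mean logs, pooled counts, TMMwsp factors and removal of the highest cell were run for folds only. The spread of the shares is therefore not set against that of the folds. The share lay between 71.5% and 83.1% for Egr1, 65.7% and 76.9% for Gadd45g and 61.6% and 76.8% for Dusp1. It lay between 59.7% and 71.8% for Nr4a1, 58.7% and 69.7% for Npas4, and 54% and 70.4% for Fosb. The median of all genes lay between 51.8% and 56.7%. Fosb, Jun and Arc stayed over 50% in all 11, while Atf4 went down to 44.3% and Per1 to 42.2%. In cells at or below the median total, Fosb and Arc had 54% and Jun 52.7%, under the median of 54.5% for all genes there. Of the 86 genes given by rule, 53 had over 50% of their higher side's sum in 1 cell, so a fold of means is a weak guide for them. Cells whose totals put 3 counts above 10 CPM, 9 of the 26 without Fos, would be expected to hold fewer than 3 counts of Fos at that level. No paired analysis was possible because both sides are P cells that share no replicate number and no test was made.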

Other observations

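Some cells with 0 Fos counts held early genes at high levels, each with a different set. P71 had a summed early gene level of 7016 CPM over 21 early genes, with Ier2 at 4312 CPM and Jun at 1625 CPM. P32 had 6032 CPM over 9 early genes, with Egr1 at 2509 CPM, Btg2 at 2289 CPM and Fosb at 605 CPM. P30 had 4886 CPM over 4 early genes, with Nr4a1 at 4583 CPM. P39 had 4740 CPM over 12 early genes, with Gadd45g at 3603 CPM. A level of 3 Fos counts would have read as 0.621 CPM in P71, 0.544 CPM in P32, 6.94 CPM in P30 and 0.893 CPM in P39. These cells were picked after their values were seen.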
